A study of Mus musculus with 3 samples.

Results

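The enzymes that build heme, together with 2 proteins that handle it afterwards, were followed across 3 arrays of whole mouse embryos. The genes were Alas2, Alad, Uros, Urod, Cpox, Ppox and Fech of the synthesis pathway, then Blvrb and Hebp1. They were taken by name, as every probe set whose only annotated symbol was one of these 9 genes. The 9 genes were chosen with earlier results of these data known. This gave 19 probe sets for 9 genes, out of 34945 probe sets for 18193 genes with a single symbol.

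Each array held RNA of 1 pool of embryos at 8.5 days post coitum (dpc), with males and females mixed in the pool. The normal group was 1 array, of 6 pooled C57Bl/6J litter mates. The mutant group was 2 arrays, of 8 and 6 pooled litter mates on the same strain background, given as biological replicates. Mutant embryos were Dnmt3l-/+, with a Dnmt3l-/- mother and a wildtype father. Dnmt3l is a cofactor of the enzymes that methylate DNA in the growing oocyte, and the study asked how embryos whose maternal germline lacked it differ from normal ones. The embryos themselves kept a wildtype paternal copy of the gene.

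Heme is an iron-containing ring that carries oxygen in hemoglobin and electrons in cytochromes. Synthesis starts in the mitochondrion, where Alas2, the red cell form of aminolevulinate synthase, joins glycine to succinyl-CoA. It moves to the cytosol for the steps of Alad, Uros and Urod, among others, and returns to the mitochondrion for Cpox, Ppox and Fech, the last of which inserts iron. In the mouse, the first red cells arise in the blood islands of the yolk sac, next to the visceral endoderm, and make embryonic globins.

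Signals are on a linear scale and are comparable between arrays for 1 probe set, not between probe sets. Log2 ratios are differences of log2(signal + 31.9) between a mutant array and the normal array, and the added constant makes the change of dim genes look smaller. A gene with several probe sets is represented by its brightest one, the one with the highest mean log2 level. A change was called where the adjusted p of limma over 27022 probe sets was under 0.05. Since the normal group had 1 array, that test takes its spread to equal the spread between the mutant arrays. The number of arrays limits the precision of every value.

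RefSeq promoter windows (build GRCm38.p6, 250 bases before to 50 after a transcription start) were taken for 8 of the 9 genes, as 11 windows. They were searched on both strands for the letters GATA with A or T just before them and A or G just after, a word of 6 bases which GATA factors such as the red cell regulator Gata1 can bind. At least 1 word was present in 4 of the 11 windows, and in 29.8% of all 32851 windows in the table. The windows below are shown 5' to 3' along the gene, with these words in capitals, because they set the 3 synthesis genes with such words beside Hebp1, a called gene whose window held none. The windows of Alad, Urod and Ppox held none either, and no window of Fech was searched. A match describes the letters only, and binding was not measured.
Alas2 (chrX:150547167-150547466, plus strand): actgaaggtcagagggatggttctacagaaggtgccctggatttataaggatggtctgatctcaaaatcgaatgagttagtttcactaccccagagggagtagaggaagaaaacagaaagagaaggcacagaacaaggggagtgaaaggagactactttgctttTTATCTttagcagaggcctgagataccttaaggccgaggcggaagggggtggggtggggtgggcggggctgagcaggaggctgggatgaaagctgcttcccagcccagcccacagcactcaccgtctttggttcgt
Uros (chr7:133702451-133702750, minus strand): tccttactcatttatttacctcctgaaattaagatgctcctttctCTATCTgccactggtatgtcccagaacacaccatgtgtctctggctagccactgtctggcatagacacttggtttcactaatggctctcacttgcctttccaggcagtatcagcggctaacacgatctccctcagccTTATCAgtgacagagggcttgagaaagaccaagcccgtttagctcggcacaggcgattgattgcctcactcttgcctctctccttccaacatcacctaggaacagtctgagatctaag
Cpox (chr16:58669958-58670257, plus strand): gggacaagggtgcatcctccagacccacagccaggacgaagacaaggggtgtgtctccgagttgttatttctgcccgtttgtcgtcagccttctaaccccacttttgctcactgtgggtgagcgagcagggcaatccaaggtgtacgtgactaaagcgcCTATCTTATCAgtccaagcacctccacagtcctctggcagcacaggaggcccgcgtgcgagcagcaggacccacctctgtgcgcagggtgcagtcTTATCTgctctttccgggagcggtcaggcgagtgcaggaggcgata
Hebp1 (chr6:135168166-135168465, minus strand): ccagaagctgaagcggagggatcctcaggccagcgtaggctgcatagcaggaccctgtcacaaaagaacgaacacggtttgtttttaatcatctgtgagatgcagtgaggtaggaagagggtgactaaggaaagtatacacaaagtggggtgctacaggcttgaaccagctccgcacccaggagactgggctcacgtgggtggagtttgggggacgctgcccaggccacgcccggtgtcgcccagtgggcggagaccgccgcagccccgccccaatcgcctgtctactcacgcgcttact

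The Alas2 window held 1 word, AGATAA on the opposite strand, printed above as TTATCT. The first printed base lies 86 bases before the start (position -86), and the other positions are counted in the same way. Cpox held 3 words, at positions -91, -86 and 5, of which the first and the second share a base. Uros has 2 annotated starts, and the window shown belongs to the downstream one, with words at positions -205 and -68, while the upstream window held none. Blvrb also has 2 windows, with 1 word (TGATAG) in the downstream one only. Windows also differed in CpG pairs, the sites of DNA methylation, with 6 for Alas2, 5 for the downstream Uros window, 15 for Cpox and 17 for Hebp1, against a median of 7 over all windows. Methylation was not measured here.

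Across the 9 genes, 8 read higher in both mutant pools than in the normal pool, and 1, Urod, lay between them. For comparison, the normal array lay below both mutant arrays for 36.5% of the 12913 genes that passed the filter on dim signals. Differences of at least 2-fold in both mutant arrays were seen for 4 genes (Hebp1, Blvrb, Alas2 and Fech), against 3.24% of all genes. Limma called 2 of the 9 genes higher, Hebp1 and Blvrb, against 0.728% of all genes and 0.548% of all probe sets, and none of the 9 lower, against 0.0296% of probe sets. Hebp1 and Blvrb passed the filter only through the mutant arrays, where they were high. Neither their calls nor their part in the counts of this paragraph is support. Among the 7 synthesis genes, 6 were higher in both mutant arrays, 2 were at least 2-fold higher in both, and none was called. All 9 genes were chosen with earlier results of these data known, so the counts describe these genes only and are no support. Under a stricter filter Blvrb was removed and 1 of the 9, Hebp1, was called. At an unadjusted p under 0.05 (limma), 6 of the 9 were higher and none was lower, against 8.01% of all genes higher and 4.24% lower. The median log2 ratio of the 9 genes was 0.83, split as 1.07 and 0.79 over mutants 1 and 2, and the median of all genes was -0.02. In RNA of whole embryos, a difference in the number of cells of a type and one in the RNA per cell cannot be told apart.

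**Figure D1:**
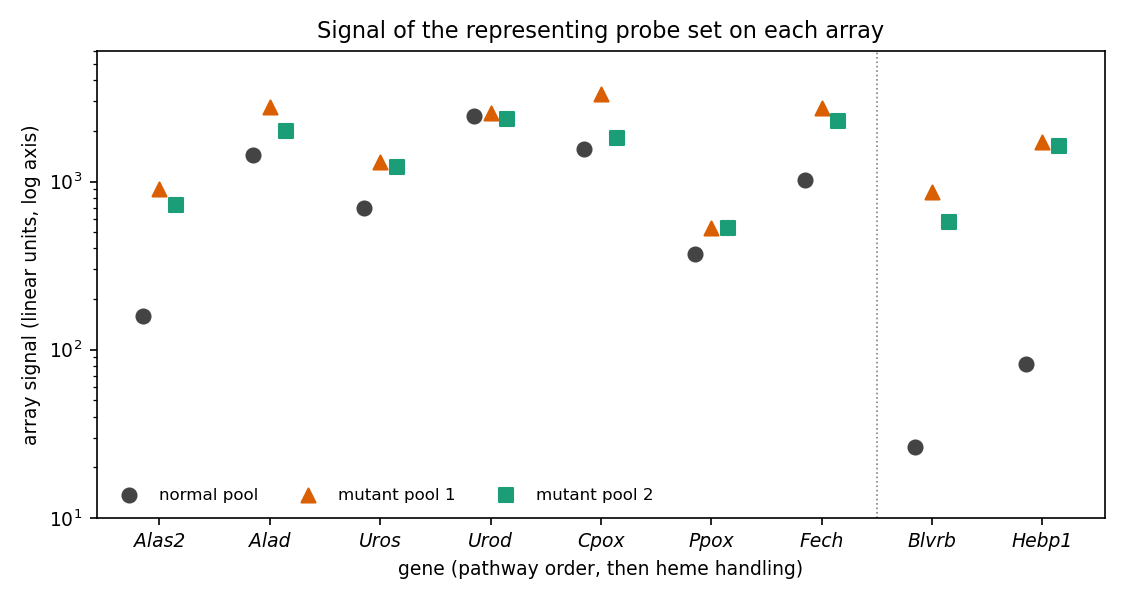
Array signal (linear units on a log axis) of the representing probe set of each gene, in pathway order, on the normal array and on mutant arrays 1 and 2, with 1 point per array and the dotted line before the heme handling genes. The normal point lies below both mutant points for 8 of the 9 genes, by most for Blvrb (26.3 against 871 and 576) and Hebp1 (82.2 against 1719.6 and 1638), and between them for Urod.

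Alas2, the rate-limiting first enzyme in red cells, had the highest log2 ratio among the synthesis enzymes. Its single probe set read 159 in the normal pool against 903 and 729 in mutant pools 1 and 2. Both mutant pools were far above the normal pool, and the gap between them was small beside that distance. The mutant mean was 816 ± 122 (SD, n = 2), or 5.12 times the normal signal. The log2 ratio was 2.14 (SE 0.28), split as 2.29 and 1.99 over mutants 1 and 2. Its adjusted p was 0.0568 (limma), so it was not called. It was called when the arrays were centred on their medians (2.22, adjusted p = 0.0350) and in a fit with 1 row per gene (adjusted p = 0.00963), and its adjusted p over the alternatives ran from 0.00963 to 0.193.

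The cytosolic enzymes showed smaller differences. Alad, which joins 2 molecules of aminolevulinate into the first ring, read 1439 in the normal pool against 2769 and 1999 in the mutant pools. Its log2 ratio was 0.70 (SE 0.26, adjusted p = 0.344, limma). The other Alad probe set read 167, 472 and 296, a log2 ratio of 1.03. Both probe sets put mutant 1 highest and the normal pool lowest.

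Uros closes the porphyrin ring. Its brighter probe set read 696 in the normal pool against 1299 and 1224 in the mutant pools, a log2 ratio of 0.83 (SE 0.22, adjusted p = 0.226, limma). The mutant pools lay close together, with log2 ratios of 0.87 and 0.79. The dimmer probe set did not share this pattern, with 110.3 against 114 and 122, a log2 ratio of 0.08. The mean over both probe sets gave 0.45.

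Urod, which shortens the side chains of the ring, did not separate the groups by its brightest probe set. This probe set read 2443 in the normal pool against 2555 and 2355 in the mutant pools. The log2 ratio was 0.01, with a 95% interval from -0.48 to 0.49. The name of this probe set ends in x_at, which in Affymetrix naming marks probes that can also match other sequences. The other Urod probe set read 849 against 1253 and 959.6, with mutant 2 nearer to the normal pool than to mutant 1. Its log2 ratio was 0.36 (95% interval from -0.30 to 1.01). The mean over both probe sets gave 0.18, and by such means 9 of the 9 genes were higher in both mutant pools.

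The late mitochondrial steps are those of Cpox, Ppox and Fech. Cpox oxidises coproporphyrinogen. Its brightest probe set read 1568 in the normal pool against 3331 and 1807 in the mutant pools, so mutant 1 stood well above the other pools. The log2 ratio was 0.64 (SE 0.37, adjusted p = 0.530, limma), split as 1.07 and 0.20 over mutants 1 and 2.

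The second Cpox probe set separated the groups more clearly, with 730.3 against 2851 and 1891, a log2 ratio of 1.63 (SE 0.30, adjusted p = 0.115, limma). Mutant 1 was again the highest pool. The dimmest one read 119 against 89.2 and 140.2, a log2 ratio of -0.07, with the normal pool between the mutants. The 3 probe sets of Cpox therefore disagreed in size and in sign, and the mean over them was 0.73.

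Ppox, the enzyme before the insertion of iron, read 372 in the normal pool against 532 and 531 in the mutant pools. The mutant pools were nearly equal, and both lay above the normal pool. The log2 ratio was 0.48 (SE 0.26, adjusted p = 0.492, limma). A second Ppox probe set had the opposite sign, with 158 against 124 and 139.7 (log2 ratio -0.21). Its dimmest one was removed by the filter, with 13.9 in the normal pool against 15.2 and 63.5 in the mutant pools.

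Fech, ferrochelatase, inserts iron into the ring, and its 3 kept probe sets gave similar pictures. Its brightest probe set read 1016 in the normal pool against 2736 and 2295 in the mutant pools. This is a log2 ratio of 1.28 (SE 0.22, adjusted p = 0.103, limma), split as 1.40 and 1.15 over mutants 1 and 2. A second probe set read 290.4 against 1028 and 1012.5, and the third read 289 against 991 and 1014. Their log2 ratios were 1.71 and 1.69, with adjusted p of 0.0658 and 0.0681 (limma). The 3 probe sets all put both mutant pools more than 2-fold above the normal pool on the log2 scale used, and none was called. A dim one was removed, reading 15.7 against 16.9 and 13.1.

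**Figure D2:**
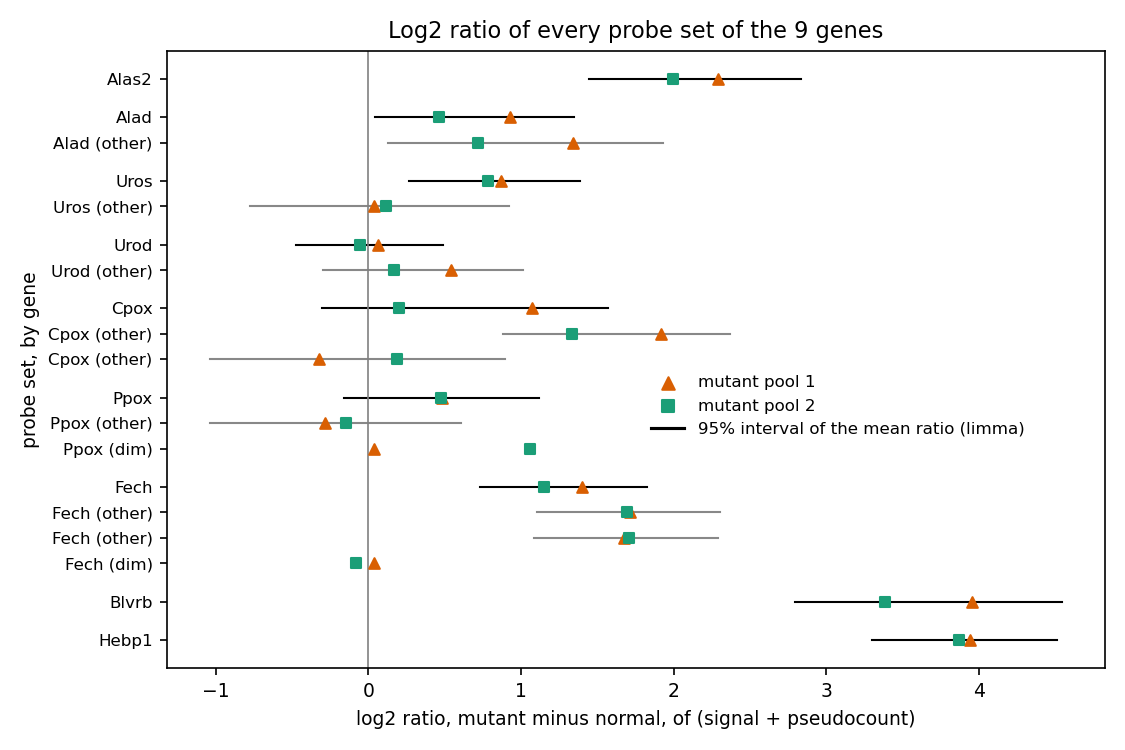
Log2 ratio of each mutant pool to the normal pool, of signal + pseudocount, for all 19 probe sets of the 9 genes, with 1 row per probe set. Lines are 95% intervals of the mean ratio from limma, black for the representing probe set and grey for others, and dim probe sets removed by the filter have none. All 3 kept Fech probe sets lie between 1.28 and 1.71, while those of Cpox run from -0.07 to 1.63.

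The 2 heme handling genes stood apart in size. Blvrb, biliverdin reductase B, is a flavin reductase that also reduces a form of biliverdin, the pigment left when heme is opened. It read 26.3 in the normal pool against 871 and 576 in the mutant pools. The normal signal lay below the 20th percentile of its array (31.9), so the probe set passed the filter through the mutant arrays. The mutant mean was 723 ± 209 (SD, n = 2). Both mutant pools were far above the normal pool, and mutant 1 was the higher. The log2 ratio was 3.67 (SE 0.35, adjusted p = 0.0291, limma), and it ranged from 3.10 to 4.70 when the constant added before the logarithm was 63.8 or 1.

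Hebp1, a small protein that binds heme and free porphyrins, had the highest log2 ratio of the 9 at the constant used, and Blvrb was the higher with a constant of 1 (4.70 against 4.34) and in mutant 1 alone (3.95 against 3.94). It read 82.2 in the normal pool against 1719.6 and 1638 in the mutant pools, with a mutant mean of 1679 ± 57.6 (SD, n = 2), or 20.4 times the normal signal. The mutant pools were nearly equal, with log2 ratios of 3.94 and 3.87. Its normal level alone would not have passed the filter, so the probe set passed through the mutant arrays. The log2 ratio was 3.91 (SE 0.24, adjusted p = 0.0111, limma). The calls of both genes were lost without the filter on dim probe sets (adjusted p = 0.0766 for Hebp1 and 0.144 for Blvrb) and without a trend of variance on signal (adjusted p = 0.114 for each). Their adjusted p over the alternatives ran from 0.00177 to 0.114 and from 0.00313 to 0.144.

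Ordered by log2 ratio, the genes ran Hebp1, Blvrb, Alas2, Fech, Uros, Alad, Cpox, Ppox and Urod. The order of the first pair turned with a constant of 1 and in mutant 1 alone, and the place of Blvrb depends on the constant because its normal signal was below the 20th percentile. The 95% intervals of neighbours in this order overlapped in every case. Those of Hebp1 (3.30 to 4.51) and Alas2 (1.45 to 2.83) did not overlap. All ratios share the 1 normal array, and differences between genes were not tested.

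The patterns of 4 of the genes were matched to those of all other genes, by the distance between their pairs of log2 ratios in mutants 1 and 2. This rests on 3 arrays and describes likeness only. The nearest to Alas2 were Klf1 and Hemgn, a transcription factor and a nuclear protein of red cells, at distances of 0.07 and 0.09, then Prss8, Misp3 and Apoe. The nearest to Hebp1 were Cap1, which acts on actin, at 0.38, the lipoprotein gene Apob at 0.46, Blvrb at 0.49, 4933402E13Rik and the calcium-binding protein gene S100g. Blvrb in turn was nearest to Hebp1, Dram1, Cap1, the fibrinogen gene Fgb and Ces2b, at 0.49 to 0.69. Fech lay in a denser range, with Lad1, Dsg2, Enpp5, Ocln and Nabp1 within 0.05, of which Dsg2 and Ocln code for cell junction proteins.

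**Figure D3:**
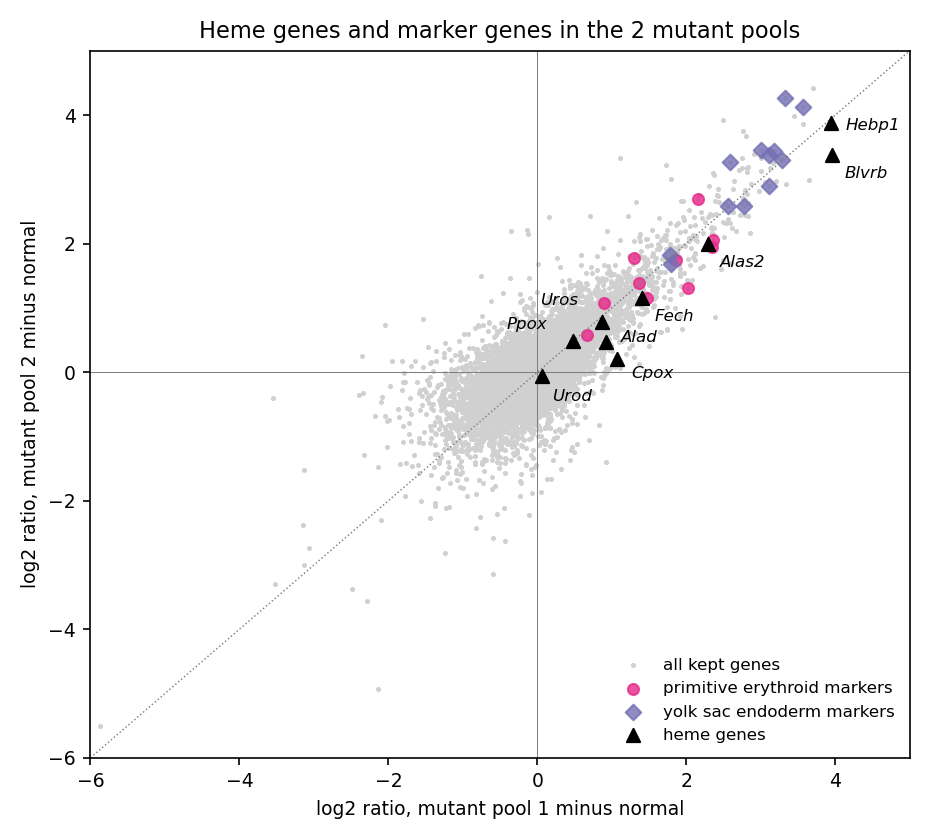
Log2 ratio to the normal pool in mutant pool 1 (horizontal) and mutant pool 2 (vertical), with 1 point per gene, for all kept genes, primitive erythroid markers, yolk sac endoderm markers and the 9 heme genes. Alas2 (2.29 and 1.99) lies among the erythroid markers, and Hebp1 (3.94 and 3.87) and Blvrb (3.95 and 3.38) lie near the upper yolk sac endoderm markers.

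Kept markers of both of these tissues also read higher in both mutant pools. Of 13 primitive erythroid markers, 10 passed the filter, all of which exceeded the normal pool in both mutants. Called were 2, the red cell anion exchanger Slc4a1 and the embryonic globin Hba-x. The Slc4a1 call came from an x_at probe set (adjusted p = 0.0498, limma), and its other kept probe set was not called (adjusted p = 0.0794, limma). The summed signal of the 11 erythroid markers measured was 34319.9 in the normal pool against 69384 and 70525 in the mutant pools. Most of that sum came from the globins Hbb-bh1, Hbb-y and Hba-x, which read 14623, 10049 and 8321 in the normal pool. The median log2 ratio of the 10 kept markers was 1.60. Of 13 yolk sac endoderm markers, 12 were measured and 12 were called higher. Their summed signal was 18869 in the normal pool against 103867 and 110914 in the mutant pools, with a median log2 ratio of 3.12. No marker of either list lay below the 20th percentile on all 3 arrays. For comparison, 36.5% of all genes were higher in both mutant arrays and 0.728% were called higher. Both lists were chosen with earlier results of these data known, so these counts are no support. The part of these tissues in the results above was not tested.

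Marker lists of other tissues gave mixed pictures. Over all genes, 36.5% were higher and 39.1% lower in both mutant arrays, and 0.759% were called in either direction. These lists were also chosen with earlier results of these data known, so their counts are no support. Macrophages also break down heme, and 5 of 9 macrophage markers passed the filter, with 3 higher in both mutant arrays and none called. Their summed signal was 1219 on the normal array and 1436 and 1797 on the mutant arrays, and 1 marker, C1qa, was below the 20th percentile on all arrays. The 9 markers of the embryo's own heart, nervous system and somites were all measured. By its brightest probe set each was lower in both mutant arrays, with sums of 12805 against 5065 and 7228, and none was called. A dimmer kept Pax3 probe set had the normal pool between the mutants (335 against 349 and 318), while the other kept probe sets of these markers were lower in both. The trophoblast sum over 4 markers was 737 against 2195 and 2337, and 1 of the 2 kept, Esx1, was called higher (log2 ratio 2.25, adjusted p = 0.0498, limma). Tpbpa, removed by the filter, went the other way, with 180.2 against 32.8 and 23.3. The decidual sum over 6 was 4098 against 2723 and 4753, which hides opposite moves. Prl8a2, a prolactin family hormone of the decidua, read 1376 against 91.2 and 111 and was called lower (log2 ratio -3.41, adjusted p = 0.0212, limma), while Lum, an extracellular matrix protein, read 444 against 749 and 2530 and was not called. How much yolk sac each pool held is not given in the sources used here.

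Genes around the pathway were counted from 4 lists of 79 genes in all, of which 65 passed the filter. The lists were chosen with earlier results of these data known, so their counts are no support. Limma called none of them in either direction, against 0.759% of all genes. At an unadjusted p under 0.05 (limma) 17 were higher and none was lower, against 8.01% and 4.24% of all genes. In all, 37 were higher in both mutant arrays and 13 lower in both, against 36.5% and 39.1% of all genes, and these shares are the background for each list below. The median log2 ratio of the 65 was 0.12. Calls appeared under median centring (2 genes, Slc25a37 and Klf1) and in the fit with 1 row per gene (4 genes, which added Flvcr2 and Nfe2).

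Among genes of the first step, of substrate supply and of iron supply to the mitochondrion, 22 passed the filter, with 15 above and 2 below the normal pool in both mutants. Slc25a37, mitoferrin, the iron importer of red cell mitochondria, read 906 in the normal pool against 2455 and 2565 in the mutant pools, a log2 ratio of 1.44 (SE 0.20, adjusted p = 0.0648, limma). Abcb10, a mitochondrial transporter needed for red cell heme synthesis, had a log2 ratio of 0.82, and Fam210b, a mitochondrial protein of red cells, had 0.74. The mutant pools were alike for Slc25a37 (1.41 and 1.47) and less so for Abcb10 (1.08 and 0.57).

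Of the genes for heme breakdown and transport, 13 passed the filter, with 6 above and 4 below the normal pool in both mutants, both near the shares of all genes. Flvcr2, a transporter of the family that moves heme and choline, read 161 against 448 and 641, a log2 ratio of 1.56. Abcc2, which exports conjugated bilirubin, read 44.6 against 177 and 216, a log2 ratio of 1.57. Hmox1, the inducible heme oxygenase that opens the ring, read 353 against 887 and 702, a log2 ratio of 1.09. All 3 put both mutant pools above the normal pool, and none was called (adjusted p = 0.145, 0.163 and 0.203 by limma).

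Of the regulators of these genes, 16 passed the filter, with 10 above and 3 below the normal pool in both mutants. The highest were Klf1 (log2 ratio 2.14), Gata1 (1.66) and Nfe2 (1.52), which are red cell transcription factors. Klf1 read 179.6 in the normal pool against 1039.9 and 779.8 in the mutant pools, an adjusted p of 0.0610 (limma). Gata1 read 207 against 936 and 559, so mutant 1 was the higher, as for Alas2. Klf1 and Gata1 are also on the erythroid marker list.

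**Figure D4:**
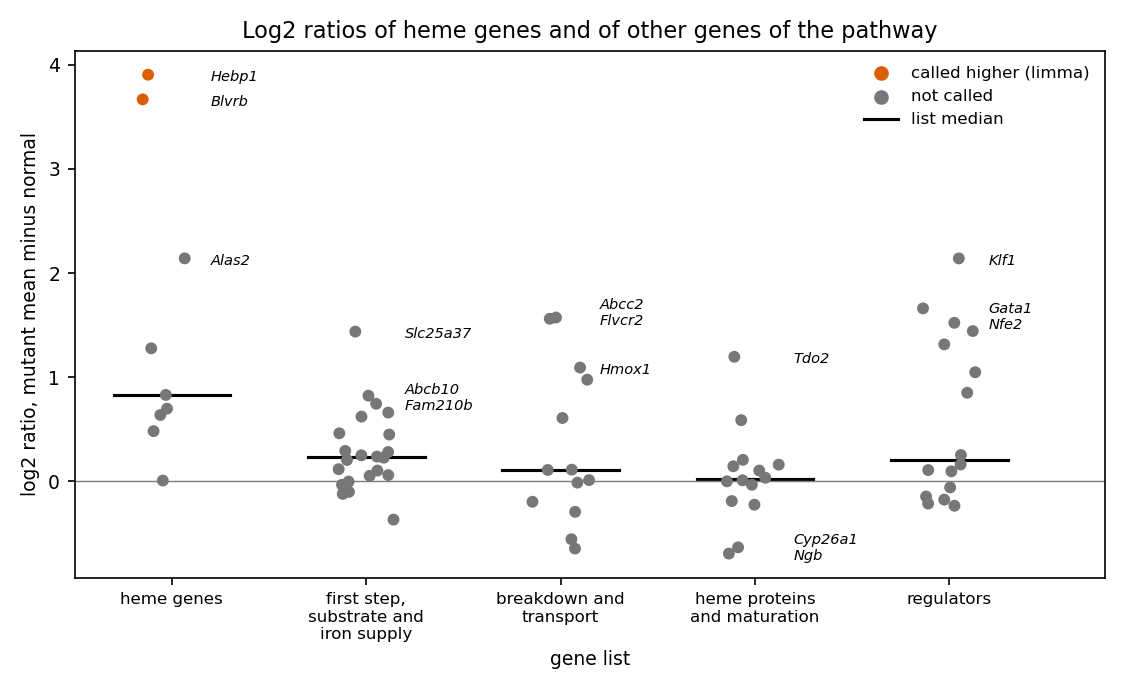
Log2 ratio, mutant mean minus normal, of the 9 heme genes and of kept genes on 4 lists around the pathway, with 1 point per gene, a bar at each list's median, orange for genes called higher by limma and grey for the others; the names are the 3 genes of each list with the largest absolute ratio. The heme genes have a median of 0.83, and the other lists have medians of 0.23, 0.11, 0.02 and 0.21 from left to right.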

How the data were processed

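Biotin-labelled cRNA of 3 embryo pools was hybridised to Affymetrix arrays. Each deposited value is the linear intensity of a probe set, made with GCOS and MAS5 per the submitters' processing notes. Versions and settings are not given in the sources used here. All 3 arrays had a 2% trimmed mean of 500, so signal totals were made alike, and more of one tissue can then lower genes of the others. Their medians were 144 (normal), 130 and 140 (mutants 1 and 2).

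Of 45101 probe sets, 64 controls were left out. Genes came from the platform annotation, in which 34945 probe sets had 1 symbol, 932 several and 9160 none listed. Log2(signal + 31.9) was used, where 31.9 is the median over arrays of the 20th percentile. Probe sets were kept where the mean of both group means reached the 40th percentile (27022). Limma 3.58.1 in R 4.3.3 (lmFit, eBayes with a variance trend) was fitted to all 3 arrays, two-sided, with Benjamini-Hochberg adjustment and a threshold of 0.05. It had 1 residual and 4.52 prior degrees of freedom. The code was tested on simulated data.

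The genes and lists were chosen with earlier results of these data known. All 9 genes were named, and of each list around the pathway the 3 genes with the largest absolute log2 ratio and any called. For Alas2, Fech, Blvrb and Hebp1, the 5 genes nearest in log2 ratio were named. Alternatives changed the pseudocount, filter, scaling, variance model and probe set choice, and left out each mutant array.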

Additional observations from a re-analysis of the deposited data

How the results depend on the processing

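Calls rested on the filter and the variance model. Without the filter on dim probe sets, limma called 0 probe sets higher, 0 lower and 0 of the 9 genes (2423 and 2451 probe sets had an unadjusted p under 0.05). Without a variance trend it also called 0, 0 and 0 (1641 and 1814). The stricter filter removed Blvrb and left 1 of the 9 genes called. Median centring gave 263 probe sets higher and 24 lower, 3 of the 9 genes and 2 other pathway genes, and the mean of probe sets gave 4 of the latter. The pseudocounts, quantile normalization and cyclic loess kept 2 of the 9 genes called. Urod turned sign under quantile normalization (-0.031), and ran from -0.052 to 0.064 when each mutant array was left out in turn. The median of the 9 genes then ran from 0.79 to 1.07. The causes were not tested. No paired analysis was possible because the normal group has 1 array. Detection calls were not used here, so whether a dim signal was above background is unknown.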

Other observations

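Embryonic globins, the proteins that take up most heme in red cells, had smaller log2 ratios than Alas2. Hba-x read 8321 in the normal pool against 21444 and 21748 in the mutant pools, a log2 ratio of 1.37 (SE 0.13, adjusted p = 0.0269, limma). Hbb-y read 10049 against 18709.5 and 21119 (log2 ratio 0.98), and Hbb-bh1 read 14623 against 23262 and 21854 (0.62), and neither was called. Their other probe sets gave 0.97 and 1.40 for Hbb-y and 0.67 and 0.76 for Hbb-bh1, and none was called. The highest signals of any probe set were 28155, 26320.1 and 24912 on the normal array and mutants 1 and 2, so the mutant globin signals lay near the top of each array's range. Whether the arrays were saturated there was not tested.

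Genes of heme proteins and of heme attachment had the lowest median of the 4 lists around the pathway. Of 14 genes kept, 6 were higher in both mutant arrays, 4 lower in both, none was called by limma, and the median log2 ratio was 0.02. Tdo2, a heme enzyme that breaks down tryptophan, read 219 against 603 and 490.0 (log2 ratio 1.20). Ngb, neuroglobin, read 205 against 93.8 and 138 (-0.70), and Cyp26a1, which breaks down retinoic acid, read 1160.3 against 858 and 630.1 (-0.64).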
